A study of Mus musculus with 37 samples.

Results

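The genes of the Greatwall pathway that end at the phosphatase PP2A were followed through mouse oocyte maturation. The 8 members, Mastl, Arpp19, Ensa, Ppp2ca, Ppp2cb, Ppp2r1a, Ppp2r2a and Ppp2r2d, were taken by gene symbol and are 8 of the 54752 genes counted beside the spike-ins. The question was how the level of each gene, and the split of that level over its annotated transcripts, differed between oocyte stages within a batch.

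Single oocytes of C57BL/6 females aged 6 to 8 weeks were sequenced by Smart-seq2, after the zona pellucida and the polar body had been removed. GV oocytes, still arrested in prophase with an intact germinal vesicle, were taken from ovaries 48 h after 5 IU of PMSG, a gonadotropin that stimulates follicle growth. MI oocytes, at the first metaphase, had matured for 8 h in culture from the GV stage, and MII oocytes, arrested at the second metaphase, had matured in the animal and came from the oviduct ampulla. The donors of MII oocytes had also received 5 IU of PMSG, then 5 IU of hCG, the hormone that triggers ovulation, and the oocytes were taken 15 h after the hCG. A hormone treatment of the donors of MI oocytes was not given separately in the sources used here. Batch A held 6 GV and 6 MII oocytes, and batch B held 10 GV and 15 MI oocytes. MI and MII oocytes never shared a batch, so the MI and MII stages and their batches cannot be told apart except through the GV oocytes of each batch. Stage and place of maturation cannot be told apart, since all MI oocytes matured in culture and all MII oocytes in the animal after hCG. Which oocytes came from the same female was not given in the sources used here, so the p-values measure only the spread between these oocytes, which may be technical.

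Mastl encodes the Greatwall kinase, which phosphorylates the small proteins Arpp19 and Ensa at entry into M phase. In that state both proteins bind and inhibit PP2A that carries a B55 regulatory subunit, which keeps the substrates of Cdk1 phosphorylated. In mouse oocytes the kinase is known for its role in the passage from the first to the second meiotic division.

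Total RSEM expected counts per oocyte lay between 7509875 and 12648629 for the GV and between 9930485 and 13988444 for the MII oocytes of batch A. In batch B they lay between 7184205 and 17724506 for the GV and between 2709280 and 19390128 for the MI oocytes. The shallowest library, MI oocyte 15, held 469 counts of the 8 members together, whereas the median MI oocyte held 3351. In batch A the members summed to 3343 to 7368 counts per GV oocyte and to 4528 to 6181 counts per MII oocyte.

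The label oocyte was checked against marker genes. All 12 oocyte markers had counts in each of the 37 oocytes, with Gdf9, an oocyte growth factor, the most abundant of them in each of the 4 groups. Their summed level had a median of 13145 CPM (counts scaled to the size of the library after TMM normalization, as all CPM given here) in GV oocytes and of 8659 CPM in MII oocytes of batch A, without overlap, and 6 of the 12 were lower in MII oocytes at an adjusted p under 0.05. In batch B the medians of this sum were 4807 and 4352 CPM, and 0 of 12 passed the edgeR test, with 4 at an unadjusted p under 0.05. Of the 12419 genes tested between GV and MI oocytes, 1371 were under that value. The 15 cumulus and granulosa markers summed to medians of 35.5 and 22.5 CPM in GV and MII oocytes of batch A and of 24.8 and 25.7 CPM in GV and MI oocytes of batch B. Nr5a2 was the most abundant of them in every group, Ptx3 had no counts in any GV or MI oocyte, and Amh and Foxl2 had none throughout batch B. Gja1 and Ccnd2, named after their values were seen, were the 2 of these markers that passed between GV and MI, both lower in MI oocytes, and neither passed with HTSeq counts. Of the 5 tested, Nr5a2 (0.75 on the log2 scale, unadjusted p = 0.0119, adjusted p = 0.272), Has2 (1.21, adjusted p = 0.670) and Kitl (0.04, adjusted p = 0.988), also named after their values were seen, had values in the other direction that did not pass. The 6 blood and immune markers summed to medians of 0.753, 1.36, 2.32 and 1.50 CPM in GV and MII oocytes of batch A and GV and MI oocytes of batch B. MII oocyte 1, the library with counts for the most genes (29816), stood apart at 10.4 CPM with all 6 detected, where the other MII oocytes had 0.686 to 2.43 CPM. The part of these marker levels in the values of the members was not tested.

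TMM normalization sets the bulk of genes equal between oocytes of a batch, and a gene passed when its Benjamini-Hochberg adjusted p over all genes tested was under 0.05. ERCC spike-ins gave a second scale in batch A, where each oocyte held 44663 to 143062 spike-in counts, against 0 to 32 in batch B. Scaled to the spike-ins, the median log2 fold change from GV to MII over all genes was -0.72, against 0.01 with TMM and 0.32 with DESeq2. Of the 12929 genes tested, 1172 were higher and 1490 lower in MII oocytes with TMM, and 144 were higher and 5452 lower with the spike-ins. The amount of spike-in added per oocyte was not given in the sources used here, and its part in the shift was not tested.

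Compared per length (expected counts per kilobase of transcript, scaled within an oocyte), Arpp19 had the highest median of the members in GV oocytes of batch A, at 117, followed by Ppp2r1a at 86.4. Mastl at 55.1 and Ppp2r2d at 51.7 came next and did not differ beyond their spread, since Mastl was the higher of the 2 in 3 of 6 oocytes. Ppp2r2a at 23.9, Ppp2ca at 16.1 and Ensa at 10.7 followed, and Ppp2cb had a median of 0.278. Even Ensa, the lowest of the 7 well-measured members, had a median above that of 87.7% of all genes. Each transcript was divided by its own length in these values, so counts of short transcripts weigh more. Arpp19 has an isoform of 429 bases beside forms of up to 4046 bases. In CPM, without that division, Mastl stood above Arpp19, at 115 to 161 against 80.7 to 142 CPM in these GV oocytes. Whether the per-length order holds with a single length per gene was not tested.

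In MII oocytes the per-length order was led by Ppp2r1a at 113, ahead of Arpp19 at 66.3 in 6 of 6 oocytes. Ensa at 9.71 and Ppp2ca at 8.56 did not separate there, with Ensa higher in 3 of 6. In batch B, Arpp19 led in GV oocytes with a per-length median of 81.1 and in MI oocytes with 83.3, and by this measure it exceeded Mastl in 10 of 10 and 12 of 15 oocytes. Ppp2r1a stood lower in that batch, at 25.3 in GV and 16.9 in MI oocytes, next to Ppp2r2a at 13.3 and 20.6. Ppp2ca was the lowest of the 7 in both groups of batch B, at 6.11 and 6.23. In CPM, without division by length, Mastl had 78.5 to 152 CPM in GV and 64.8 to 208 CPM in MI oocytes. Arpp19 had 51.8 to 84.8 and 41.3 to 82.3 CPM in the same groups. The part of the short Arpp19 isoform in the per-length values of Arpp19, in either batch, was not tested.

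**Figure D1:**
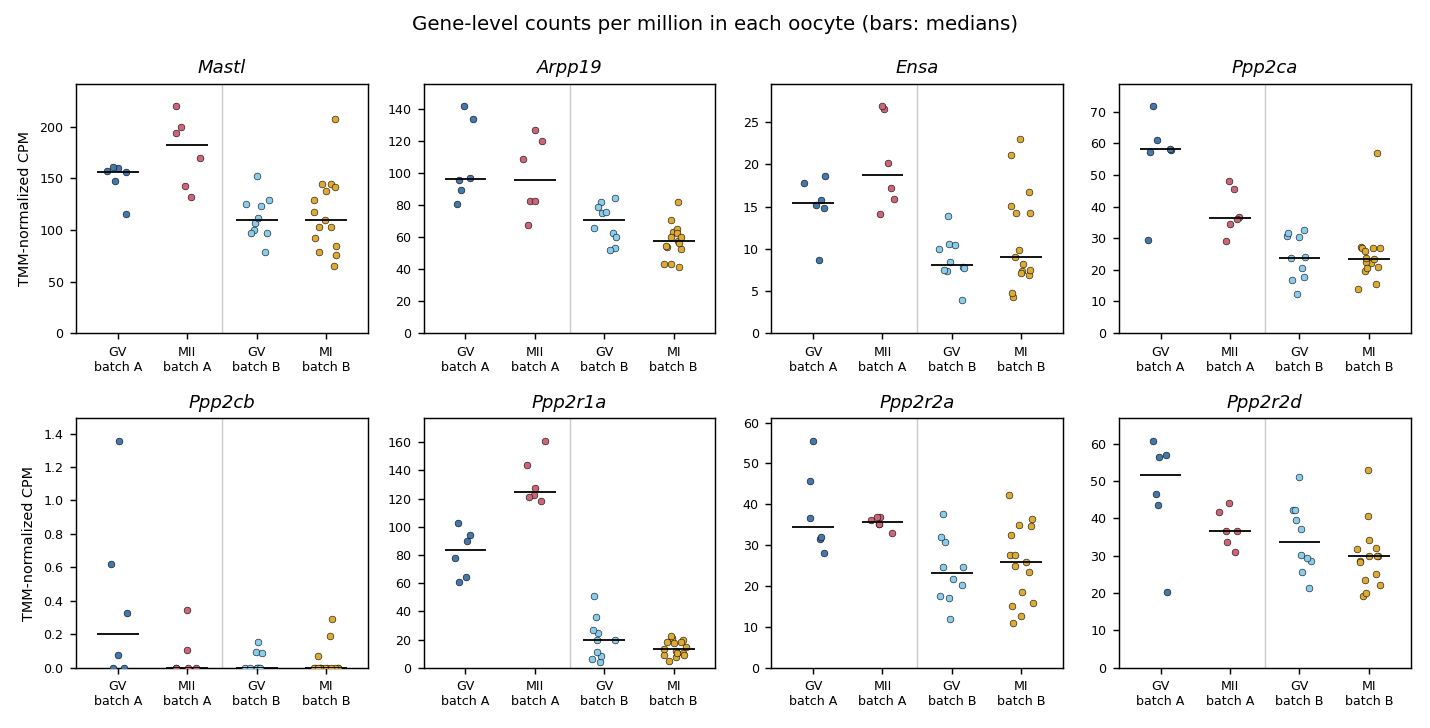
Level of each member gene in every oocyte, as TMM-normalized CPM on the vertical axis, with the 4 groups (GV and MII of batch A, GV and MI of batch B) side by side; points are oocytes and bars are medians. The 6 MII oocytes lie between 118 and 161 CPM for Ppp2r1a, above the GV oocytes of their batch at 60.7 to 103 CPM, a difference that was 0.01 on the log2 scale with spike-in scaling; the other members overlap between stages.

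Between GV and MII oocytes of batch A, Ppp2r1a was the member that rose, by 1.62-fold with TMM scaling, and 0 passed as lower, a count that reached 2 when 1 oocyte was left out. Of the 8 members, 7 had enough counts to be tested and 1 passed, where 20.6% of all genes tested passed, 9.06% higher and 11.5% lower. With 1 of 7 the members stood near that background, and their median log2 fold change of -0.11 lay close to the 0.01 of all genes. With spike-in scaling 0 of 7 members were higher and 4 were lower, beside 144 higher and 5452 lower of the 12929 genes tested.

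Between GV and MI oocytes of batch B no member passed. The edgeR test gave 0 of 7 members higher or lower, 1 at an unadjusted p under 0.05, and DESeq2 also gave 0. Over all genes tested, 1371 of 12419 had an unadjusted p under 0.05. Of the 12419 genes tested, 0.145% passed, 0.0966% higher and 0.0483% lower, which is 12 and 6 genes with TMM, 10 and 3 with RLE scaling and 191 and 51 with DESeq2. With HTSeq counts 0 genes passed in either direction, with or without MI oocytes 4, 8 and 9. The median log2 fold change was 0.04 for the members and 0.02 for all genes.

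The change from GV to MII was also set against that from GV to MI, each within its own batch. By edgeR 0 of the 7 members tested differed, 1 at an unadjusted p under 0.05, and by DESeq2 0 differed. Over all genes tested, 2671 of 15083 had an unadjusted p under 0.05. Of the 15083 genes tested, 5.46% passed, 3.1% higher and 2.36% lower, and the median log2 difference was 0.13 for the members and 0.04 for all genes. These 467 higher and 356 lower genes became 119 and 200 with HTSeq counts, 1065 and 535 without the filter on low counts and 752 and 530 with DESeq2.

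Mastl (ENSMUSG00000026779.6, chr2:23115606-23156024, minus strand of GRCm38) had 115, 156 and 161 CPM as its lowest, median and highest level in GV oocytes of batch A, and 132, 182 and 220.0 CPM in MII oocytes. Of the 6 MII oocytes, 4 lay above every GV oocyte, and the ranges overlapped. The log2 fold change was 0.24 (SE 0.15, adjusted p = 0.260) with TMM and -0.49 (adjusted p = 0.0781) with the spike-ins, so its sign turned with the scaling. In batch B Mastl had 78.5, 109.5 and 152 CPM in GV oocytes and 64.8, 109.8 and 208 CPM in MI oocytes. The medians were nearly equal and the MI oocytes spread to both sides of the GV range, with 1 above and 2 below it. Its log2 fold change there was 0.05 (SE 0.15, adjusted p = 0.954), and the difference between the stage changes was 0.27 (SE 0.24, adjusted p = 0.645).

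Arpp19 (ENSMUSG00000007656.13, chr9:75037614-75060313, plus strand), 1 of the 2 substrates through which the kinase restrains PP2A, had 80.7, 96.4 and 142 CPM in GV and 67.4, 96.0 and 127 CPM in MII oocytes. The ranges lay on each other, with 1 MII oocyte below the lowest GV oocyte. For Arpp19 the log2 fold change was -0.12 (SE 0.19, adjusted p = 0.697) with TMM and -0.84 (adjusted p = 0.00813) with the spike-ins, which is -0.13 relative to the median of all genes on that scale. In batch B its lowest, median and highest levels were 51.8, 70.6 and 84.8 CPM in GV oocytes and 41.3, 57.8 and 82.3 CPM in MI oocytes. Of the 15 MI oocytes, 3 lay below the GV range and none above it. The log2 fold change of -0.25 (SE 0.12, 95% interval -0.49 to -0.01, unadjusted p = 0.0451) did not pass, at an adjusted p of 0.441, and Arpp19 was the member counted above at an unadjusted p under 0.05. The stage changes of Arpp19 differed by 0.22 (SE 0.22, adjusted p = 0.681).

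Ensa (ENSMUSG00000038619.12, chr3:95624993-95632102, plus strand), the other substrate, was measured at lower levels, with 8.68, 15.5 and 18.6 CPM in GV and 14.1, 18.7 and 26.9 CPM in MII oocytes. In MII oocytes 3 of 6 values were above all GV values. Its log2 fold change was 0.41 (SE 0.22, adjusted p = 0.198) with TMM and -0.35 (adjusted p = 0.367) with the spike-ins, again with a turn in sign. GV oocytes of batch B were at 3.92, 8.12 and 13.9 CPM and MI oocytes at 4.23, 9.04 and 23.1 CPM. The MI oocytes were the more variable, and 6 of 15 lay above every GV oocyte. Its log2 fold change was 0.35 (SE 0.26, adjusted p = 0.677), and the stage changes differed by 0.13 (SE 0.40, adjusted p = 0.926).

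The balance of the 2 substrates was compared within each oocyte as the share of Arpp19 in the per-length sum of Arpp19 and Ensa. That share had its lowest, median and highest value at 89.5, 92.2 and 96.1% in GV and at 74.6, 87.1 and 93.0% in MII oocytes, 3 of which lay below all GV oocytes. The difference of means was -6.46 percentage points (exact two-sided permutation p = 0.0779, adjusted p = 0.398 over 8 such tests), and the ranges overlapped. GV oocytes of batch B had 87.4, 91.8 and 95.9% and MI oocytes 80.0, 89.8 and 95.7%, a difference of -1.71 points (permutation p = 0.333, adjusted p = 0.533). In each of the 37 oocytes Arpp19 was thus the more abundant of the pair per length.

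Ppp2ca (ENSMUSG00000020349.4, chr11:52098681-52127778, plus strand), which encodes the alpha catalytic subunit of PP2A, had 29.6, 58.2 and 71.8 CPM in GV and 29.3, 36.3 and 48.1 CPM in MII oocytes. GV oocyte 2, at 29.6 CPM, stood apart from the other 5, which began at 57.2 CPM and lay above all MII oocytes. Its log2 fold change of -0.54 (SE 0.19, 95% interval -0.92 to -0.17) narrowly missed the threshold with TMM at an adjusted p of 0.0520, and passed with the spike-ins at -1.30 (adjusted p = 0.00079). Without GV oocyte 2 it was -0.68 and passed (adjusted p = 0.0062), as it did without MII oocyte 2 (adjusted p = 0.0456) and without the filter on low counts (adjusted p = 0.0448). In the other 14 of 18 alternatives it did not pass, with an adjusted p of up to 0.138. In batch B Ppp2ca had 12.3, 23.9 and 32.5 CPM in GV and 14.0, 23.5 and 57.1 CPM in MI oocytes. The highest of these was MI oocyte 15, the shallowest library, and the log2 fold change was 0.04 with it (SE 0.19, adjusted p = 0.972) and -0.09 without it. The stage changes of Ppp2ca differed by -0.50 (SE 0.30, adjusted p = 0.404). The gene overlaps the lincRNAs 9430098F02Rik and Gm26551 and the small RNA Gm24157 on the opposite strand and Mir3061 on its own, and the strandedness of the counting was not given in the sources used here, so its counts are uncertain to that extent.

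Ppp2cb (ENSMUSG00000009630.10, chr8:33599625-33619441, plus strand), which encodes the beta catalytic subunit, was close to absent from the counts. It had 0 expected counts in 25 of the 37 oocytes, at most 15 in any oocyte, and 43 in all, where Ppp2ca had 13395. A count of 0 allowed a level of up to 0.1295 to 1.65 CPM, depending on the oocyte. HTSeq, which counts reads per gene, gave 0 in 22 oocytes and 119 in all. Ppp2cb was left out of the tests by the filter on low counts in all 3 comparisons. Ppp2ca made up 89.8 to 100% of the per-length sum of both genes in GV oocytes and 94.6 to 100% in MII oocytes of batch A (difference of means 2.33 points, exact permutation p = 0.294, adjusted p = 0.533). Without GV oocyte 5, which held 15 of the 43 counts of Ppp2cb, the difference was 0.99 points. In batch B its share lay between 93.6 and 100% in MI oocytes, and the difference from GV was -0.27 points (adjusted p = 0.843).

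Ppp2r1a (ENSMUSG00000007564.15, chr17:20945311-20965916, plus strand) encodes the alpha isoform of the scaffold subunit, which holds the catalytic and the regulatory subunit together. Its levels were 60.7, 83.7 and 103 CPM in GV oocytes and 118, 125 and 161 CPM in MII oocytes of batch A. All 6 MII oocytes were above all 6 GV oocytes, as the plot of member levels shows. The log2 fold change was 0.70 (SE 0.15, 95% interval 0.40 to 0.99, adjusted p = 0.00453) with TMM, and 0.01 (adjusted p = 0.979) with the spike-ins, where it lay 0.72 above the median of all genes. The call held in 17 of 18 alternatives, the spike-in scaling being the exception, with adjusted p from 0.000358 to 0.979.

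In batch B Ppp2r1a had 4.35, 19.7 and 50.6 CPM in GV and 4.77, 13.2 and 22.5 CPM in MI oocytes, with the MI range inside that of the GV oocytes. From GV to MI the log2 fold change was -0.58 (SE 0.30, 95% interval -1.17 to 0.01, adjusted p = 0.485). GV oocytes of this batch varied widely, with a coefficient of variation of 70.1%, against 20.6% in GV oocytes of batch A. The change to MII exceeded that to MI by 1.34 on the log2 scale (SE 0.45, 95% interval 0.47 to 2.22), with an unadjusted p of 0.00442, the 1 member under 0.05 in that comparison, and an adjusted p of 0.0673. It passed in 1 of 4 alternatives, without the filter on low counts (1.28, adjusted p = 0.0202), and the adjusted p reached 0.157 with HTSeq counts.

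Ppp2r2a (ENSMUSG00000022052.9, chr14:67014056-67072444, minus strand) and Ppp2r2d (ENSMUSG00000041769.13, chr7:138846079-138883057, plus strand) encode the B55 alpha and B55 delta regulatory subunits, the forms of PP2A on which phosphorylated Arpp19 and Ensa act. Ppp2r2a had 28.0, 34.4 and 55.5 CPM in GV and 32.9, 35.6 and 36.97 CPM in MII oocytes of batch A. The MII oocytes lay inside the GV range and close to each other. For Ppp2r2a the log2 fold change was -0.11 (SE 0.17, adjusted p = 0.691) with TMM, 0.03 without GV oocyte 3, and -0.81 (adjusted p = 0.0114) with the spike-ins, or -0.10 relative to the median of all genes there. Levels of Ppp2r2a in batch B were 11.9, 23.2 and 37.5 CPM in GV and 11.0, 25.8 and 42.3 CPM in MI oocytes. Both groups covered about the same range, and the log2 fold change was 0.11 (SE 0.21, adjusted p = 0.911). Its stage changes differed by -0.15 (SE 0.33, adjusted p = 0.888).

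Ppp2r2d had 20.4, 51.5 and 60.7 CPM in GV and 30.9, 36.5 and 44.1 CPM in MII oocytes. GV oocytes reached both lower and higher than the MII oocytes. Its log2 fold change of -0.35 (SE 0.21, adjusted p = 0.258) became -0.51 and passed without GV oocyte 2 (adjusted p = 0.0225), and was -1.07 (adjusted p = 0.00341) with the spike-ins. In batch B it had 21.3, 33.7 and 51.1 CPM in GV and 19.3, 29.9 and 52.9 CPM in MI oocytes, with overlap (log2 fold change -0.22, SE 0.16, adjusted p = 0.674). For Ppp2r2d the stage changes differed by -0.06 (SE 0.28, adjusted p = 0.949). The 5′ end of Ppp2r2d overlaps Mapk1ip1 on the opposite strand, so without known strandedness a part of its counts is uncertain.

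The share of Ppp2r2a in the per-length sum of the B55 pair was 30.2 to 52.8% in GV and 31.6 to 39.1% in MII oocytes of batch A. The difference of means was -1.97 points (exact permutation p = 0.738, adjusted p = 0.843), and its direction turned with HTSeq counts (3.48 points) and without GV oocyte 2 (1.19 points). Its median share in batch B was 32.2% in GV and 43.1% in MI oocytes, a difference of means of 7.77 points (permutation p = 0.0996, adjusted p = 0.398) that was 2.92 points with HTSeq counts. Of the 15 MI oocytes, 4 were above the GV range. The sum of Arpp19 and Ensa made up a median of 66.8% of the per-length total of substrates and B55 genes in GV and 60.5% in MII oocytes (difference of means -4.60 points, exact permutation p = 0.327, adjusted p = 0.533). That difference turned to 0.83 points with HTSeq counts. In batch B the medians were 66.6% in GV and 67.7% in MI oocytes (-0.43 points, adjusted p = 0.878). All 8 comparisons of shares overlapped between stages.

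RSEM divides the reads of a gene over its annotated transcripts by estimation, and the share of each transcript in the gene's expected counts was compared. Transcripts are called by their GENCODE names, of the form gene-number, and those of Arpp19 by isoform and number. The 8 genes have 42 annotated transcripts, of which 22 reached a mean share of 5% in at least 1 group. In batch A 17 of the 42 were tested and 3 passed, 1 higher and 2 lower in MII oocytes, where 9.3% of the 22461 transcripts tested passed. Transcript usage, the change of a transcript relative to the other tested transcripts of its gene, was testable for 5 members and passed for 1, Ppp2r2a, where 2.39% of 5475 genes passed. In batch B 20 member transcripts were tested and 0 passed by edgeR, with 2 at an unadjusted p under 0.05, and the share over all 22717 transcripts tested was 0%, with 1615 at an unadjusted p under 0.05, and DESeq2 passed 172 higher and 26 lower. Usage in batch B passed for 0 of 6 members by edgeR, with 1 at an unadjusted p under 0.05, where 0.108% of 5533 genes passed. Of all these genes, 148 had an unadjusted p under 0.05. Differences between the transcript changes of the 2 batches were not tested.

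Ppp2r2a held the clearest transcript difference. Ppp2r2a-203, of the annotation class nonsense-mediated decay (the degradation of mRNAs with an early stop codon), made up 20.2, 40.1 and 42.9% of the gene's counts as lowest, median and highest share in GV oocytes and 0.862, 7.91 and 12.8% in MII oocytes of batch A. The protein-coding Ppp2r2a-201 made up 55.7, 57.5 and 75.4% in GV and 83.6, 89.1 and 94.8% in MII oocytes. Neither range overlapped between the stages, so all 6 MII oocytes had a larger share of the coding and a smaller share of the other transcript than any GV oocyte. Usage of Ppp2r2a differed with an adjusted p of 0.00363 for the gene, and relative to its gene Ppp2r2a-203 fell by 2.29 on the log2 scale (adjusted p = 0.00457).

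In level, Ppp2r2a-203 went from 6.46, 14.1 and 23.6 CPM in GV oocytes to 0.318, 2.72 and 4.48 CPM in MII oocytes, on 78.4 to 309.6 and 3.24 to 49.7 expected counts. It fell by 2.43 on the log2 scale (SE 0.52, adjusted p = 0.0107), and it passed as lower in 16 of 16 alternatives, the spike-in scaling included. Ppp2r2a-201 went from 16.9, 22.3 and 31.1 CPM to 27.5, 31.8 and 35.0 CPM, with a log2 fold change of 0.45 (SE 0.16, adjusted p = 0.104) that was -0.23 with the spike-ins. The gene's level, given above, was thus made of a lower Ppp2r2a-203 and a Ppp2r2a-201 that did not pass in either direction.

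The 2 transcripts share 8 exons with identical ends, and Ppp2r2a-203 has an extra exon 3 of 62 bases, within the gene's span at chr14:67014056-67072444 on the minus strand of GRCm38. Its 3′ end is annotated 1618 bases upstream of that of Ppp2r2a-201. The sequences at the junction after exon 2 are given because they show where the extra exon enters the transcript. Capitals mark bases of the extra exon, and the sequences are from GENCODE M21 transcripts, 5′ to 3′. The first covers bases 419 to 442 of Ppp2r2a-201, and the second covers bases 157 to 180 of Ppp2r2a-203.
Ppp2r2a-201 at the exon 2 end: acgtagcagaagcagatataattt
Ppp2r2a-203 at the exon 2 end: acgtagcagaagGGTTCACTGCAG
The annotated coding length of Ppp2r2a-203 is 150 bases, against 1341 bases in Ppp2r2a-201. The deposited counts do not show which reads told the 2 transcripts apart, at this exon or at the 3′ end.

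In batch B Ppp2r2a-203 made up 8.46, 34.9 and 51.5% in GV and 2.37, 33.8 and 65.1% in MI oocytes, with overlap. Its level differed by 0.23 on the log2 scale (SE 0.46, adjusted p = 0.998). Ppp2r2a-204, a protein-coding transcript with a coding length of 1101 bases, had a median share of 5.04% in GV and 21.9% in MI oocytes, and 8 of 15 MI oocytes lay above all GV oocytes. Its level difference of 1.56 (SE 0.86, adjusted p = 0.791) did not pass. Ppp2r2a-201 had median shares of 59.9 and 37.9%, while the sum of Ppp2r2a-201 and Ppp2r2a-204 had medians of 60.3 and 60.1%, with overlap. The non-coding Ppp2r2a-205 had median shares of 0.641 to 3.45% over the 4 groups.

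**Figure D2:**
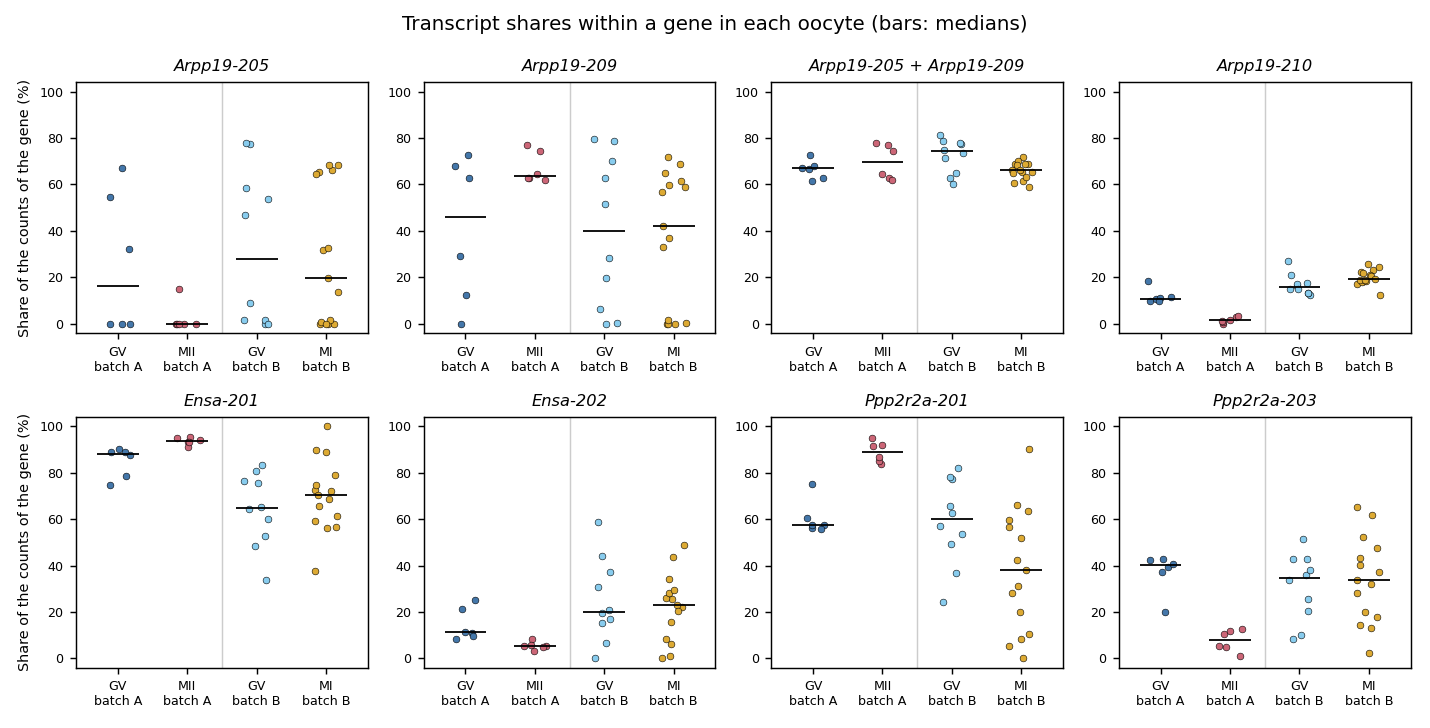
Share of a gene's expected counts, in percent on the vertical axis, for transcripts of Arpp19, Ensa and Ppp2r2a in every oocyte of the 4 groups; points are oocytes and bars are medians. Ppp2r2a-203 and Arpp19 isoform-210 lie lower in all 6 MII oocytes than in any GV oocyte of batch A, while Arpp19 isoform-205 and Arpp19 isoform-209 scatter widely but sum to 58.8 to 81.1% in each oocyte.

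Arpp19 is annotated with 11 transcripts. Arpp19 isoform-210, a short protein-coding form of 429 bases, made up 9.63, 10.9 and 18.3% of the gene's counts in GV oocytes and 0, 1.45 and 3.14% in MII oocytes of batch A. The ranges did not overlap, and the 1 MII oocyte at 0 allows a share of up to 0.375%. In level it went from 9.22, 12.1 and 16.4 CPM to 0, 1.32 and 4.00 CPM, on 115 to 163 and 0 to 37.5 expected counts. It fell by 2.79 on the log2 scale (SE 0.66, adjusted p = 0.0188) and passed as lower in 16 of 16 alternatives. Usage was less firm, with an adjusted p of 0.274 for the gene and of 0.143 for the transcript, which had a usage difference of -3.08 on the log2 scale. Arpp19 isoform-205, at a mean share of 25.7% in GV oocytes, was removed by the filter on low counts. It was thus not part of this test. Without GV oocyte 3, Arpp19 isoform-210 passed for usage (adjusted p = 0.0419). In 12 of 14 alternatives it did not pass, with an adjusted p of up to 0.860. The adjusted p for the gene reached 0.590.

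Arpp19 isoform-210 ends 3475 bases upstream of Arpp19 isoform-209, a protein-coding form of 3963 bases, by the annotation. Its exon 1 also extends 4 bases farther. The deposited counts do not show which reads told these transcripts apart, at exon 1 or at the 3′ end. In batch B Arpp19 isoform-210 stayed at similar shares, with 12.5, 15.7 and 27.1% in GV and 12.4, 19.5 and 25.9% in MI oocytes. The ranges lay on each other, with 1 MI oocyte below all GV oocytes.

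Arpp19 isoform-205 and Arpp19 isoform-209 carried most of the gene's counts and took each other's place from oocyte to oocyte. Their 4 exons share 3 with identical ends, and the last ends 19 bases later in Arpp19 isoform-209, although the annotated coding lengths are 336 and 435 bases. Arpp19 isoform-205 lay between 0 and 67.3% in GV and between 0 and 15.1% in MII oocytes of batch A, and between 0 and 77.7% in GV and 0 and 68.6% in MI oocytes of batch B. Arpp19 isoform-209 lay between 0.0110 and 72.6%, 61.9 and 77.1%, 0 and 79.4%, and 0 and 72.0% in the same groups. Over the 37 oocytes only Arpp19 isoform-205 held more than 5% in 8, only Arpp19 isoform-209 in 18, and both in 11. By counting error alone the zeros allow shares of up to 2.91%. That limit does not cover how RSEM divided the reads between these transcripts, whose annotated exons differ only by those 19 bases. The deposited counts do not show which reads told the pair apart. A 0 for either transcript therefore does not show that it was absent.

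Summed, the pair varied less from oocyte to oocyte than either transcript, except in MII oocytes. There the standard deviation of the sum was 7.48 points, against 6.18 for Arpp19 isoform-205 and 6.77 for Arpp19 isoform-209. The sum was at 61.6, 67.1 and 72.6% in GV and 61.9, 69.6 and 77.8% in MII oocytes of batch A. In batch B it was at 60.4, 74.3 and 81.1% in GV and 58.8, 66.1 and 72.0% in MI oocytes. MII and MI oocytes overlapped with the GV oocytes of their batch. The level of the summed pair differed between GV and MI oocytes by -0.40 on the log2 scale (SE 0.13, unadjusted p = 0.00567), which did not pass at an adjusted p of 0.434. Arpp19 isoform-209 alone had a log2 fold change of 0.59 (SE 0.76, adjusted p = 0.708) from GV to MII, which was -0.09 when the pair was summed and -0.26 with the spike-ins. With the pair summed, a choice made after seeing the data, usage of Arpp19 passed (adjusted p = 0.0407), and so did the lower usage of Arpp19 isoform-210 (-2.66 on the log2 scale, adjusted p = 0.0218).

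The other Arpp19 transcripts held smaller shares. Arpp19 isoform-203, a protein-coding form with 2 exons, had medians of 5.58% in GV and 14.5% in MII oocytes of batch A, with 3 of 6 MII oocytes above all GV oocytes. In batch B it was at 0 in 8 of 10 GV and 12 of 15 MI oocytes, which allows up to 2.91%. Arpp19 isoform-202, of the class nonsense-mediated decay, had medians from 3.63 to 8.14% over the 4 groups, and Arpp19 isoform-211 from 1.90 to 8.21%.

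Ensa was read mainly from Ensa-201, which made up 74.6, 88.3 and 90.1% in GV and 91.0, 93.8 and 95.4% in MII oocytes of batch A. Ensa-202, with 4 exons against 3 and an annotated coding length of 363 bases against 351, made up 8.58, 11.3 and 25.4% in GV and 3.10, 5.42 and 8.22% in MII oocytes. Neither range overlapped between stages, but the test of usage did not pass, with an adjusted p of 1.00 for the gene and 0.989 for Ensa-202 (-1.34 on the log2 scale). In level Ensa-202 went from 1.27, 1.94 and 3.36 CPM to 0.626, 1.04 and 1.49 CPM, on 6.04 to 37.2 expected counts (log2 fold change -0.95, SE 0.38, adjusted p = 0.132). The log2 fold change of Ensa-201 was 0.53 (SE 0.26, adjusted p = 0.233) with TMM and -0.23 with the spike-ins, and that of Ensa-202 passed as lower with the spike-ins (-1.67, adjusted p = 0.0183).

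Ensa transcripts of batch B varied from oocyte to oocyte. Ensa-201 made up 34.0, 65.0 and 83.4% in GV and 37.8, 70.5 and 100% in MI oocytes, on 31 to 314 counts of the gene. Ensa-202 had medians of 20.2 and 23.2%, and the retained-intron transcript Ensa-203 of 7.40 and 5.17%. Ensa-203 was near 0 in batch A, with a highest share of 1.02% in any oocyte.

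Mastl was read almost only from its protein-coding Mastl-201 in batch A, with 97.0, 99.3 and 99.6% in GV and 99.3, 99.7 and 100% in MII oocytes. In batch B the non-coding Mastl-202 took 1.05, 3.07 and 6.96% in GV and 0, 8.97 and 24.8% in MI oocytes. The MI oocytes spread to both sides, 8 of 15 above and 3 of 15 below all GV oocytes, and the 2 MI oocytes at 0 allow up to 0.313 and 0.414%. The level of Mastl-202 differed by 1.62 on the log2 scale (SE 0.71, unadjusted p = 0.0306, adjusted p = 0.635), and its usage by 1.58, with an adjusted p of 1.00.

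Ppp2r1a consisted mainly of Ppp2r1a-201, with 80.6, 92.4 and 95.6% in GV and 89.5, 92.1 and 93.8% in MII oocytes. This transcript rose with its gene, from 48.9, 79.0 and 94.3 CPM in GV to 106, 115 and 149.9 CPM in MII oocytes, without overlap. Its log2 fold change was 0.69 (SE 0.17, adjusted p = 0.0206) with TMM, and 0.03 (adjusted p = 0.923) with the spike-ins. The call was also lost without the filter on low counts (adjusted p = 0.0938), without GV oocyte 5 (adjusted p = 0.0517) and without MII oocyte 4 (adjusted p = 0.0524). Ppp2r1a-208, a short non-coding transcript at the 3′ end of the gene, had medians of 7.56 and 7.65% in batch A and of 20.9 and 21.9% in batch B.

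Ppp2ca was counted from Ppp2ca-201 at 99.6% or more in each oocyte. Ppp2r2d was counted mainly from Ppp2r2d-207, with medians of 75.0 and 80.6% in GV and MII oocytes of batch A and of 84.6 and 84.9% in GV and MI oocytes of batch B. Single oocytes of batch B departed from this, and Ppp2r2d-207 was down to 3.23% in MI oocyte 2, where Ppp2r2d-201 made up 93.2%. The retained-intron transcript Ppp2r2d-202 had medians of 7.12 and 6.28% in batch A and of 3.48 and 2.75% in batch B, where its log2 fold change of -1.38 (SE 0.63, unadjusted p = 0.0360, adjusted p = 0.652) did not pass.

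Around the members, 33 other genes of PP2A and its control were examined, of which 32 could be tested between GV and MII oocytes. Of these 4 were higher and 7 lower in MII oocytes with TMM, beside 9.06% higher and 11.5% lower over all genes, and 0 were higher and 13 lower with the spike-ins, beside 144 and 5452 of all 12929 genes. Among scaffold and B subunits 1 was higher and 4 were lower of 13 tested, among assembly and methylation factors 1 and 1 of 5, and among inhibitor proteins 0 and 1 of 6. Of the catalytic subunits of related phosphatases 2 of 5 were higher, and of Cdk1 and its cyclins 1 of 3 was lower. The median log2 fold change of the 32 was 0.11.

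Igbp1, which binds and protects free catalytic subunits, had 59.6, 69.7 and 86.9 CPM in GV and 28.8, 33.0 and 37.4 CPM in MII oocytes. All 6 MII oocytes lay below all GV oocytes, and the gene fell by 1.10 on the log2 scale (SE 0.14, adjusted p = 4.97e-05). Fam122a, an inhibitor of B55-bound PP2A, had 6.26, 10.2 and 11.8 CPM in GV and 2.38, 4.24 and 5.87 CPM in MII oocytes. It too fell without overlap, by 1.20 (SE 0.26, adjusted p = 0.00475).

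Ppp2r2b, the B55 beta subunit gene, fell by 1.32 (SE 0.23, adjusted p = 0.000945), from a median of 27.5 CPM to 9.99 CPM, with 5 of 6 MII oocytes below all GV oocytes. Ppp2r3c, a gene of the B'' subunit family, fell by 1.02 (SE 0.22, adjusted p = 0.00403), from 37.9 to 80.5 CPM in GV to 21.3 to 33.7 CPM in MII oocytes. Ppp2r5a, the B56 alpha subunit gene, fell by 1.71 (SE 0.42, adjusted p = 0.00975), from 148, 234 and 1010.0 CPM to 76.0, 115 and 171 CPM. That call rested on the RSEM counts, since with HTSeq counts the log2 fold change of Ppp2r5a was 0.08 (adjusted p = 0.837).

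Cdk1, the kinase whose substrates PP2A dephosphorylates, fell by 0.85 (SE 0.17, adjusted p = 0.00268), from a median of 96.5 CPM to 51.3 CPM, with 5 of 6 MII oocytes below all GV oocytes. Strn, a striatin-family regulatory subunit gene, rose by 0.63 with TMM (SE 0.13, adjusted p = 0.00304), from 594 to 825 CPM in GV to 959.7 to 1321 CPM in MII oocytes without overlap, and stood at -0.14 with the spike-ins. Ppp1cb, a catalytic subunit gene of the phosphatase PP1, rose by 0.76 with TMM (SE 0.16, adjusted p = 0.0047) and stood at 0.04 with the spike-ins (adjusted p = 0.905). The remaining passed genes, named after their values were seen, were Ppp4c (0.67) and Ppme1 (0.62), both higher, and Strn4 (-0.87, adjusted p = 0.0412), lower.

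Between GV and MI oocytes 0 of 31 tested genes of this list passed by edgeR, and 1 was lower by DESeq2. An unadjusted p under 0.05 was found for 2 of them, beside 1371 of all 12419 genes. Ppp2r2c, a brain-type B55 gene, was too low to be tested in any comparison, and Ppp2r3a in batch B. In the comparison of the stage changes 2 of 32 were higher and 2 lower, beside 3.1% and 2.36% of all genes. They were Strn (0.59, adjusted p = 0.0344) and the cyclin B1 gene Ccnb1 (0.85, adjusted p = 0.0400), named after its values were seen, and Ppp2r5a (-1.73, adjusted p = 0.00638) and Igbp1 (-0.99, adjusted p = 0.0219). With HTSeq counts Ppp2r5a stood at 0.15, and the calls of Strn (adjusted p = 0.124) and Ccnb1 (adjusted p = 0.129) were lost. Without the filter on low counts the call of Strn was lost as well (adjusted p = 0.0821).

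Genes that varied most like a member were sought among 11803 genes over the 37 oocytes, as the correlation of log2 CPM centred within batch. Among the genes most like Mastl were CT030661.1 (Pearson r 0.74, Spearman rho 0.73) and the lincRNA E330016L19Rik (0.72, rho 0.70). Arpp19 was most like Rpl32 (r 0.85, rho 0.80), Ak6 (0.82, rho 0.81) and Sap18 (0.81, rho 0.79). Ensa was less closely matched, by Wdr25 (r 0.65, rho 0.51), Sfmbt1 (0.65, rho 0.58) and Eif4g3 (0.65, rho 0.53). Rpl32 followed Arpp19 within both batches (r 0.91 in batch A and 0.83 in batch B) and without the 2 oocytes farthest from the median (r 0.82), and Wdr25 followed Ensa with r of 0.68, 0.65 and 0.61 in the same order. For CT030661.1 and Mastl these values were 0.63, 0.77 and 0.68. Each point is 1 oocyte; oocytes of a group share their stage, and depth and stage were not removed, so these values are a description.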

How the data were processed

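The authors trimmed reads of single-oocyte Smart-seq2 libraries with Trim Galore 0.6.4 and estimated expected counts per gene and transcript with RSEM 1.3.1 (mm10, GENCODE VM20, ERCC sequences). They also deposited HTSeq 0.12.4 counts per gene from STAR 2.7.6a alignments; the strandedness is not given in the sources used here. No deposited table was normalized. Gene names and structures were taken from GENCODE M21 on GRCm38, which held 54723 of 54844 gene and 138789 of 138927 transcript identifiers, 92 spike-ins included in each total.

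Expected counts were rounded, spike-ins left out, features with low counts removed with filterByExpr, and stages compared within a batch by the quasi-likelihood test of edgeR 4.0.16 after TMM normalization, in R 4.3.3. The MII and MI changes were compared in 1 model of all 37 oocytes. Transcript usage was tested with diffSpliceDGE. Shares within an oocyte were compared by two-sided exact permutation over all assignments (batch A) or 100000 resamples (batch B), in Python 3.11.15 with numpy 2.4.6, pandas 2.3.3 and scipy 1.17.1; figures used matplotlib 3.10.9. The tools were tested on simulated data. Alternatives were no filter, RLE and spike-in scaling, DESeq2 1.42.0, HTSeq counts, a replicate block and leaving out single oocytes.

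Members and gene lists were chosen with earlier results of these data known. Named were all members, their transcripts with a mean share of at least 5% in a group, pathway genes passed with a fold over 2 in any comparison, the 3 others with the smallest adjusted p between GV and MII, genes under the filter, and the 3 genes most like Mastl, Arpp19 and Ensa, of which 1 is not reported here. Intervals and limits from a count of 0 (up to 3 counts) cover counting error only, since no molecular identifiers were used. For transcripts they do not cover the division of reads by RSEM. Counts of any 2 libraries of a group differed by more than sampling noise (lowest chi-squared per degree of freedom 9.29).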

Additional observations from a re-analysis of the deposited data

Results flagged for a closer look

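The search for samples far from the others of their group left out the 15 MI oocytes. In GV and MII oocytes such a sample (Dixon's criterion at the 95% level) was found in 19 of 94 groups of values, where chance gives about 1 in 20 for independent groups. These groups are not independent, since shares of transcripts of a gene mirror each other, and a group at 0 or 100% in all other oocytes puts any other value apart, so the 2 shares are not compared. The values are given without an explanation, and 95% Wilson intervals of shares cover counting error only. In GV oocytes of batch A, Mastl was at 115 CPM in oocyte 1 (next 148) and Ppp2ca at 29.6 CPM in oocyte 2 (next 57.2). Ppp2cb was at 0.347 CPM in MII oocyte 5 of batch A (next 0.104).

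GV oocyte 1 of batch A had an Arpp19 isoform-210 share of 18.3% (15.7 to 21.4), a Ppp2r1a-201 share of 80.6% (76.9 to 83.9) and a Ppp2r1a-208 share of 19.4% (16.1 to 23.1). GV oocyte 2 of that batch had 97.0% of Mastl-201 (96.1 to 97.7) and 3.01% of Mastl-202 (2.33 to 3.88). It also had 75.4% of Ppp2r2a-201 (70.7 to 79.3) and 20.2% of Ppp2r2a-203 (16.4 to 24.4), which placed it nearest to the MII oocytes for both. Its Ensa-203 share was 0.189% (0 to 2.09), and the Ppp2r2a-204 share of GV oocyte 6 was 0.156% (0.0372 to 1.18), where the others of the group were at 0.

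Among MII oocytes, oocyte 5 had 15.1% of Arpp19 isoform-205 (12.8 to 17.9) and oocyte 1 had 99.6% of Ppp2ca-201 (98.3 to 99.95). MII oocyte 1 also had counts for 29816 genes, where the next oocyte had 22598. Among GV oocytes of batch B, oocyte 4 had 1.00% of Arpp19 isoform-203 (0.471 to 2.22), oocyte 7 had 27.1% of Ensa-203 (13.7 to 43.3, on 31 counts), oocyte 10 had 52.1% of Ppp2r2d-201 (46.8 to 57.3) and oocyte 3 had 21.6% of Ppp2r2d-202 (18.4 to 25.2).

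The change from GV to MII differed from that from GV to MI, by the model's own test, for Ppp2r5a (-1.73 on the log2 scale), Strn (0.59), Igbp1 (-0.99) and Ccnb1 (0.85). With HTSeq counts 3 of these 4 did not pass: Ppp2r5a stood at 0.15, and the adjusted p was 0.124 for Strn and 0.129 for Ccnb1. Strn did not pass without the filter on low counts either (adjusted p = 0.0821). Batch and stage cannot be told apart in these differences beyond the GV oocytes of each batch.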

How the results depend on the processing

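Over the members, named genes and transcripts, 684 values stayed the same under an alternative. For fold changes this means the same direction and side of the threshold. For gene-level usage it means the side alone, and for list counts, which are among the 684, a similar size. Of the others, 14 turned in direction, 13 newly passed, 9 kept their direction but no longer passed, and 11 list counts moved. Of the 14 that turned, 3 also no longer passed: Strn with the spike-ins, and Ppp2r5a with HTSeq counts in both comparisons below. Of counts over all genes or transcripts and of share differences, 135 stayed, 30 moved and 3 turned. The cause was not tested for any of them. With spike-in scaling in batch A, 144 genes were higher and 5452 lower, and 116 transcripts higher and 5026 lower (added after seeing the data). Directions turned for Mastl (-0.49), Ensa (-0.35), Strn (-0.14), Arpp19 isoform-209 (-0.26), Ensa-201 (-0.23) and Ppp2r2a-201 (-0.23). With HTSeq counts Ppp2r5a turned to 0.0805 in batch A and to 0.15 in the comparison of stage changes, where 119 genes were higher and 200 lower, and in batch B 0 genes passed in either direction. Leaving out MI oocytes 4, 8 and 9, whose HTSeq totals were 0.529 to 0.648 of their RSEM totals, again gave 0 and 0 genes and put Mastl at -0.0217. Summing Arpp19 isoform-205 and Arpp19 isoform-209, also added later, put Arpp19 isoform-209 at -0.0942.

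Without the filter on low counts 19 genes were higher and 25 lower in batch B, 1065 higher and 535 lower between the stage changes, 507 transcripts higher in batch A and 2 transcripts lower in batch B. RLE scaling gave 3 lower genes in batch B. DESeq2 gave 191 higher and 51 lower genes and 172 higher and 26 lower transcripts in batch B, and 752 higher genes between the stage changes. Usage in batch B passed for 34 genes with a minimum of 10 counts on average. In batch A the share of Ppp2r2a in the B55 pair turned to 3.48 points and that of Arpp19 plus Ensa to 0.83 points with HTSeq counts per length. In batch B these shares kept their direction but differed in size, at 2.92 and -2.72 points, and the share of Arpp19 in the substrate pair was at -4.50 points.

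Leaving out each oocyte of batch A in turn gave 856 to 1131 higher and 1137 to 1447 lower genes, 498 to 790 higher and 908 to 1280 lower transcripts, and 103 to 166 genes passed for usage. Ppp2r2a lay between -0.18 and 0.0309 (without GV oocyte 3), and its share in the B55 pair between -3.34 and 1.19 points. The share of Arpp19 plus Ensa lay between -6.65 and -2.29 points, that of Arpp19 in the substrate pair between -7.91 and -4.24, and that of Ppp2ca in the catalytic pair between 0.99 and 3.18. In batch B, Ppp2ca was at -0.089 without MI oocyte 15.

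Replicate numbers are shared between groups but did not pair the oocytes: 1 of 6 same-numbered pairs in batch A and 1 of 10 in batch B had a correlation of deviations over 0.1 (-0.391 to 0.356 and -0.199 to 0.136), and 1 and 0 oocytes correlated best with their own number. With the number as a block 597 genes were higher and 990 lower in batch A and 0 and 0 in batch B, where Ensa stood at -0.0409, Ppp2ca at -0.12 and Ppp2r1a at -0.27 (adjusted p = 0.877). The other 6 alternatives for Ppp2r1a in batch B lay between -0.59 and -0.52.

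Ppp2cb, Ensa transcripts in batch B and other transcripts with few counts rest on few reads per oocyte, and which oocytes share a female was not given in the sources used here. Spike-in scaling gives levels per oocyte only if equal amounts were added, which was not tested, and transcript shares depend on the annotation and on the RSEM estimate.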
